A study of Mus musculus with 66 samples.

Results

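Transcript levels of 34 genes of the Fanconi anaemia pathway and of homologous recombination were measured by RNA sequencing in E14 cells, a line of mouse embryonic stem cells. The genes were a fixed list of symbols, matched through Ensembl gene identifiers, and all 34 were found among the 55487 identifiers of each table. All 34 also passed the filter on low counts that left 15421 genes for testing. The study's 3 groups of libraries were compared: wildtype E14 cells (3 libraries), GDel1 (2 libraries) and GDel2 (2 libraries). GDel1 and GDel2 carry the same genotype label, a G4 deletion at Praf2, where G4 stands for a G-quadruplex, a fold of guanine-rich DNA or RNA. All 3 groups grew in serum with LIF and with inhibitors of GSK and of MEK1/2, and ribosomal RNA was removed from the total RNA before sequencing. The labels leave unsaid if GDel1 and GDel2 are different clones and if libraries of a group come from separate cultures. The p-values therefore measure the spread between these samples, which may be technical. Of the series' 66 samples, 59 were not analysed here.

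The Fanconi pathway repairs DNA strands that are covalently linked to each other and protects stalled replication forks. A core complex of FANC proteins attaches ubiquitin to the paired proteins FANCD2 and FANCI, and the marked pair recruits nucleases around the scaffold SLX4. The break that follows is repaired by homologous recombination: MRE11, RAD50 and NBS1 trim the ends with CtIP and EXO1, BRCA1, BARD1, PALB2 and BRCA2 mediate the search for an intact copy, and the paralog complexes (RAD51B, RAD51C, RAD51D, XRCC2 and XRCC3) and RAD54 proteins help it along. ATM and ATR are the kinases that signal breaks and exposed single strands, through CHK2 and CHK1. Embryonic stem cells spend much of their time in S phase and lean on these genes. BRIP1 (FANCJ) and BLM are helicases known to unwind G-quadruplexes.

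Libraries held 12316853 to 18762704 expected counts, and the repair genes 46 to 6056 counts each in a library (median 718.5). Praf2 was lower in both deletion groups: 27.4, 28.8 and 30.6 CPM (normalised counts, scaled to a common library size) in wildtype, 10.1 and 9.26 in GDel1, and 13.1 and 14.1 in GDel2. All embryonic stem cell markers of a list of 10 were measured, at a summed 2106 to 2470 TPM (transcript abundance, scaled by length) in wildtype, 1752 and 2271 in GDel1, and 2110 and 1772 in GDel2. Mitochondrial transcripts took 6.30 to 6.89% of counts in wildtype, 9.91 and 4.83% in GDel1, and 6.19 and 9.60% in GDel2, so 1 library of each deletion group stands above the rest. Fibroblast feeder markers (4 of 8 tested, with Col3a1 and Postn at 0 in every library) summed to 333 to 398 TPM in wildtype, 149 and 222 in GDel1, and 183 and 121 in GDel2. Primitive endoderm markers (3 of 8 tested) summed to 8.6 to 11.3 TPM in wildtype, 4.29 and 6.49 in GDel1, and 9.15 and 4.95 in GDel2. Markers of differentiated germ layers (8 of 12 tested) summed to 17.1 to 21.7 TPM in wildtype, 17.3 and 15.9 in GDel1, and 47.8 and 47.7 in GDel2. In GDel2 against wildtype, edgeR (adjusted p under 0.05) called 2 of 10 stem cell markers higher and 4 lower. Of tested feeder markers 1 was higher and 2 lower, of endoderm markers 1 and 1, and of germ layer markers 6 and 1. Over all genes, 17.4% were higher and 15.6% lower. No marker passed in GDel1, beside 0.376% of all genes. On log2(TPM + 1) the median of all genes was -0.30 in GDel1, and the sums were not corrected for it. The part of these markers and of the mitochondrial share in the results below was not tested. In bulk RNA, fewer cells of a type and less RNA per cell cannot be told apart.

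In wildtype cells the repair genes were transcribed at moderate levels, with a median of 11.6 TPM beside 5.17 TPM over all genes tested, and 30 of the 34 lay above that median. The highest was Topbp1, the scaffold that activates ATR, at 59.6, 50.7 and 50.03 TPM in the 3 wildtype libraries. Fancm, the translocase that anchors the core complex to DNA, followed at 44.3, 42.3 and 40.7 TPM, and Exo1, the exonuclease of end trimming, at 41.5, 36.1 and 34.4 TPM. Topbp1 lay above Fancm and Exo1 in every wildtype library. Fancm lay above Exo1 within each wildtype library, although their ranges across the libraries overlap.

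The lowest levels belonged to Fancf, a small adaptor of the core complex, at 1.67, 1.29 and 1.39 TPM. Rad51d, a subunit of a paralog complex, had 2.73, 1.88 and 2.03 TPM, and Brip1 had 3.04, 2.52 and 2.45 TPM. Brip1 lay above Rad51d within each wildtype library, although their ranges across the libraries overlap. Fancf lay below both in every wildtype library. These are levels per length. The 3 highest and 3 lowest genes were also these 6 when CPM was divided by the deposited effective length. That division repeats the scaling within TPM and is no separate check.

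Levels differed within each group of partners. The 8 genes of the core complex had a median of 7.74 TPM and ran from Fancf to Fancm. In the MRE11 complex, whose 3 proteins act together, Mre11a (the older symbol of Mre11, as the name table gives it) had 33.8 ± 3.19 TPM (SD, n = 3), Nbn, which encodes NBS1, had 7.23 ± 1.02 and Rad50 had 5.92 ± 0.538. Within each wildtype library the Mre11a transcript was 5.46 to 6.20 times as abundant as that of Rad50. The 5 genes of the paralog complexes (Rad51b, Rad51c, Rad51d, Xrcc2 and Xrcc3) were a low group, from 2.21 ± 0.454 TPM for Rad51d to 10.6 ± 1.39 for Xrcc2. The FANCI-FANCD2 pair had 26.6 ± 3.52 TPM for Fanci and 17.9 ± 3.09 for Fancd2. Of the BRCA mediators of strand exchange, Brca2 had 21.6 ± 5.09 TPM, Brca1 18.7 ± 0.485, Bard1 15.6 ± 1.45 and Palb2 8.56 ± 0.88.

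**Figure D1:**
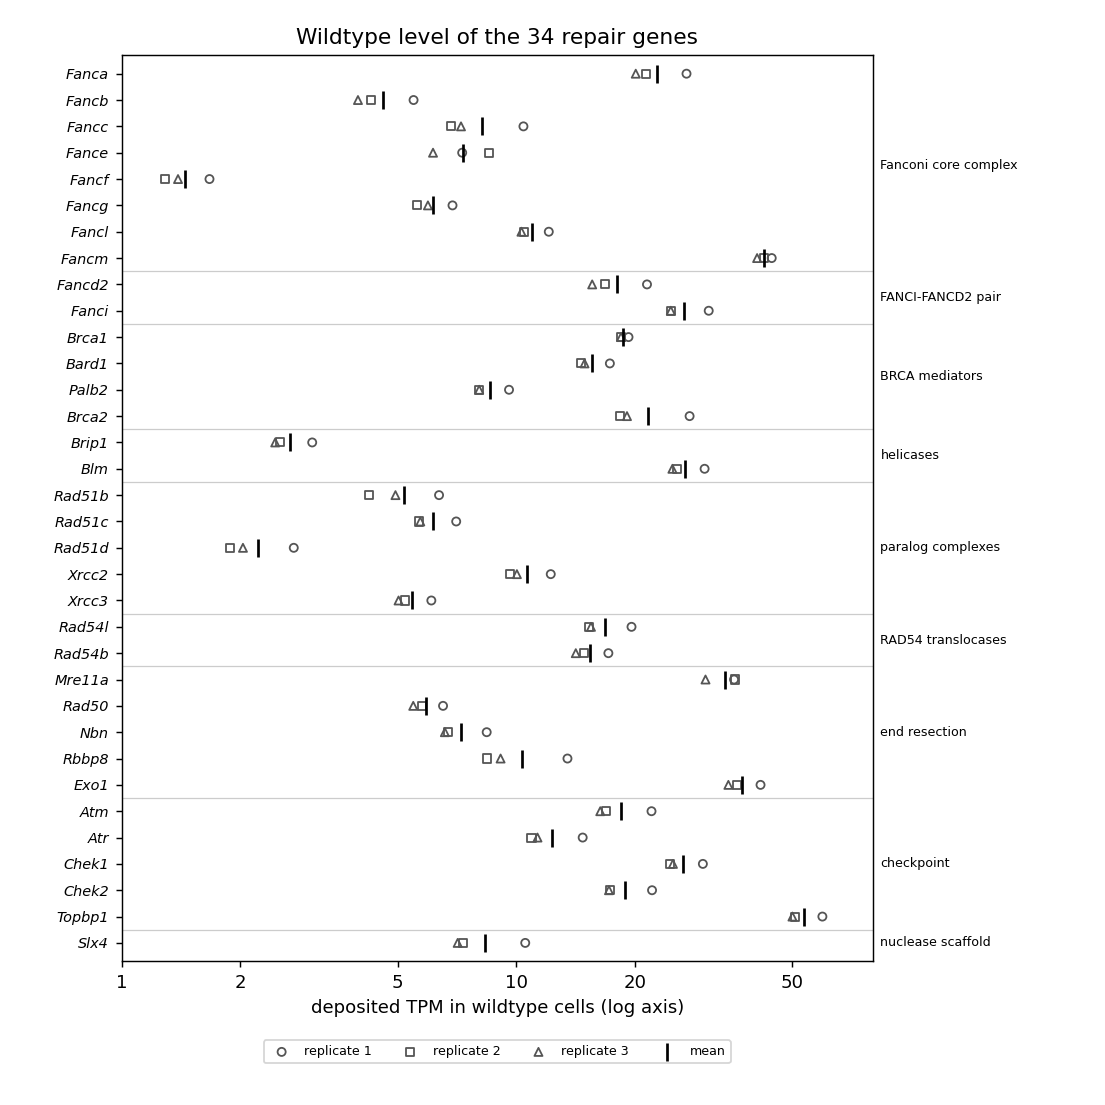
Deposited TPM of the 34 repair genes in the 3 wildtype libraries (symbols) with the mean (bar), on a log axis, grouped by role. Levels run from 1.45 TPM for Fancf to 53.4 TPM for Topbp1, and wildtype replicate 1 is the highest library for most genes.

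Promoter windows of RefSeq (GRCm38.p6, 250 bases before to 50 bases after a start) were given for 26 of the 34 genes. The windows were searched on both strands, with overlaps allowed, for 3 E2F-type strings, for CCAAT, and for a G-quadruplex pattern of 4 runs of at least 3 G with loops of 1 to 7 bases. An E2F-type string (TTTCCCGC, TTTGGCGC or TTTCGCGC) was in 6 of the 26 genes (23.1%), namely Bard1, Brca2, Chek2, Fancg, Rad51c and Topbp1, against 4.29% of 10171 tested genes with a window and 1.84% of all 32851 windows. CCAAT was in 17 genes (65.4%, against 43.8% and 37.4%). The G-quadruplex pattern was in 4 genes (15.4%, against 31.7% and 18.6%), namely Atr, Brip1, Fancm and Rad51c. Not every window lies at the outermost start of its gene. That of Fancm begins at 65075353, inside the gene (chr12:65074110-65131842), and those of Fancc, Slx4, Brca2 and Fancg also lie within their genes. So does the Rad51c window that holds its G-quadruplex match. A match describes these letters and shows neither a binding site nor a folded structure.

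The 250 bases before the start are printed for 4 genes that passed the test in GDel2: 2 with the G-quadruplex pattern (Atr, Brip1), 1 with a CCAAT string on each strand (Mre11a) and 1 in which none of the patterns was found (Fancl, 44.4% G or C). Each runs 5′ to 3′ on the gene's strand, and capitals mark matches on either strand, so that ATTGG is CCAAT on the opposite strand. The windows are chr9:95857347-95857596 (plus strand) for Atr, chr11:86201194-86201443 (minus strand) for Brip1, chr9:14784404-14784653 (plus strand) for Mre11a and chr11:26386834-26387083 (plus strand) for Fancl.
Atr: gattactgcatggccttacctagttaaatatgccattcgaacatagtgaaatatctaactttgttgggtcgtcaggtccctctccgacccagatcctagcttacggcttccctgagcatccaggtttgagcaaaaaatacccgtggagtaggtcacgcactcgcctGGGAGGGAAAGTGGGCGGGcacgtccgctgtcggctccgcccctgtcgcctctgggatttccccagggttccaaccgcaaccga
Brip1: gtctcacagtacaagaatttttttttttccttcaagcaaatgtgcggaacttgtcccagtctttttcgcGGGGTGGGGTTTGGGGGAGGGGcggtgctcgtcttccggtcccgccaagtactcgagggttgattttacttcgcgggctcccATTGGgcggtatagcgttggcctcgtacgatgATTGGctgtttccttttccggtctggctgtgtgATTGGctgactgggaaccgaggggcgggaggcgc
Mre11a: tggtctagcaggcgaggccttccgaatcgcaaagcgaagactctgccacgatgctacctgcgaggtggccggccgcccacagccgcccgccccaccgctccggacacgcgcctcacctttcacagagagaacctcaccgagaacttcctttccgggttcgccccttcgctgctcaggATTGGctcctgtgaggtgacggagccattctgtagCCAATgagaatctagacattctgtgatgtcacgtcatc
Fancl: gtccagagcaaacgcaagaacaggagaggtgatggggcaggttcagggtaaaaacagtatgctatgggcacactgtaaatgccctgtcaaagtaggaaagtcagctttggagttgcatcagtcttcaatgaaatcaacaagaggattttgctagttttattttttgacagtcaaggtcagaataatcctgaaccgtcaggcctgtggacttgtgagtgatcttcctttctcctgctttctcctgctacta
In Atr the 4 G runs span 19 bases, and in Brip1 22 bases beside 3 CCAAT strings. The match of Fancm, the gene that fell in GDel2, spans 25 bases (chr12:65075582-65075606) on the strand opposite to the gene, and reads on the gene's strand as follows.
Fancm: CCCGCCAGTCCCGCCCCCGGGACCC

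GDel1 against wildtype showed no repair gene past the test: 0 of 34 had an adjusted p under 0.05 in edgeR's quasi-likelihood test, beside 0.376% of all genes. At an unadjusted p under 0.05, 5 were higher and 1 lower (17.6% of the 34, against 24.5% of all genes). The median of the repair genes was 0.05 on the log2 scale, against 0.00 for all genes. DESeq2 called 2 of the 34, Brca1 higher (0.32, adjusted p = 0.0452) and Bard1 lower (-0.34, adjusted p = 0.0418), beside 6.44% of all genes.

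Brca1 and Bard1 encode the partners of a ubiquitin ligase. Brca1 had 144, 152 and 146 CPM in wildtype, and 186 and 182 in GDel1. Bard1 had 131, 132 and 133 CPM in wildtype, and 97.7 and 110 in GDel1. Each GDel1 library lay above every wildtype library for Brca1 and below every one for Bard1, although neither passed in edgeR (adjusted p = 0.0753 and 0.0694). The ratio of Brca1 to Bard1 TPM within a library was 1.12, 1.26 and 1.24 in wildtype and 1.82 and 1.73 in GDel1, with 1.23 and 1.60 in GDel2.

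The 2 GDel1 libraries differed from each other for several genes. Rad50 had 41.7, 43.4 and 44.0 CPM in wildtype against 48.9 and 63.2 in GDel1 (0.39 ± 0.12 SE, adjusted p = 0.0946). It was at 0.56 without GDel1 replicate 1, where the remaining library is assumed to vary like the other groups. Bard1 was at -0.43 without GDel1 replicate 2, under the same assumption. Leaving out both libraries of high mitochondrial share, GDel1 replicate 1 and GDel2 replicate 2, edgeR called 5 of the 34 higher in GDel1 and 1 lower, beside 14.3% and 12.0% of all genes, with 1 library left in each deletion group. These were Rad50, Brca1, Chek1, Nbn and Fancm, and Bard1.

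The choice of scale bears on GDel1. On log2(TPM + 1) the median of all genes in GDel1 was -0.30 and that of the repair genes -0.37, and 6 repair genes were called lower by limma, beside 20.9% of all genes. They were Fancc, Bard1, Fanca, Fanci, Brca2 and Fancm. Brca1 (-0.22) and Rad50 (-0.07) had the other sign on this scale and did not pass. Relative to the median of all genes, Brca1 was at 0.08 and Rad50 at 0.23, and the 6 called genes ran from -0.25 (Fanci) to -0.51 (Fanca). Fancm shows how far the scales part: its CPM was 176, 169 and 170 in wildtype and 182 and 194 in GDel1, while its TPM was 44.3, 42.3 and 40.7 in wildtype and 32.6 and 22.9 in GDel1. The deposited effective length of Fancm, which enters TPM, was 2890, 2426 and 2575 bases in wildtype, 2557 and 4168 in GDel1, and 2538 and 2368 in GDel2. GDel1 replicate 2 thus stands apart in length. Fanci likewise had 2805 to 2989 bases in wildtype and 3152 and 3853 in GDel1.

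**Figure D2:**
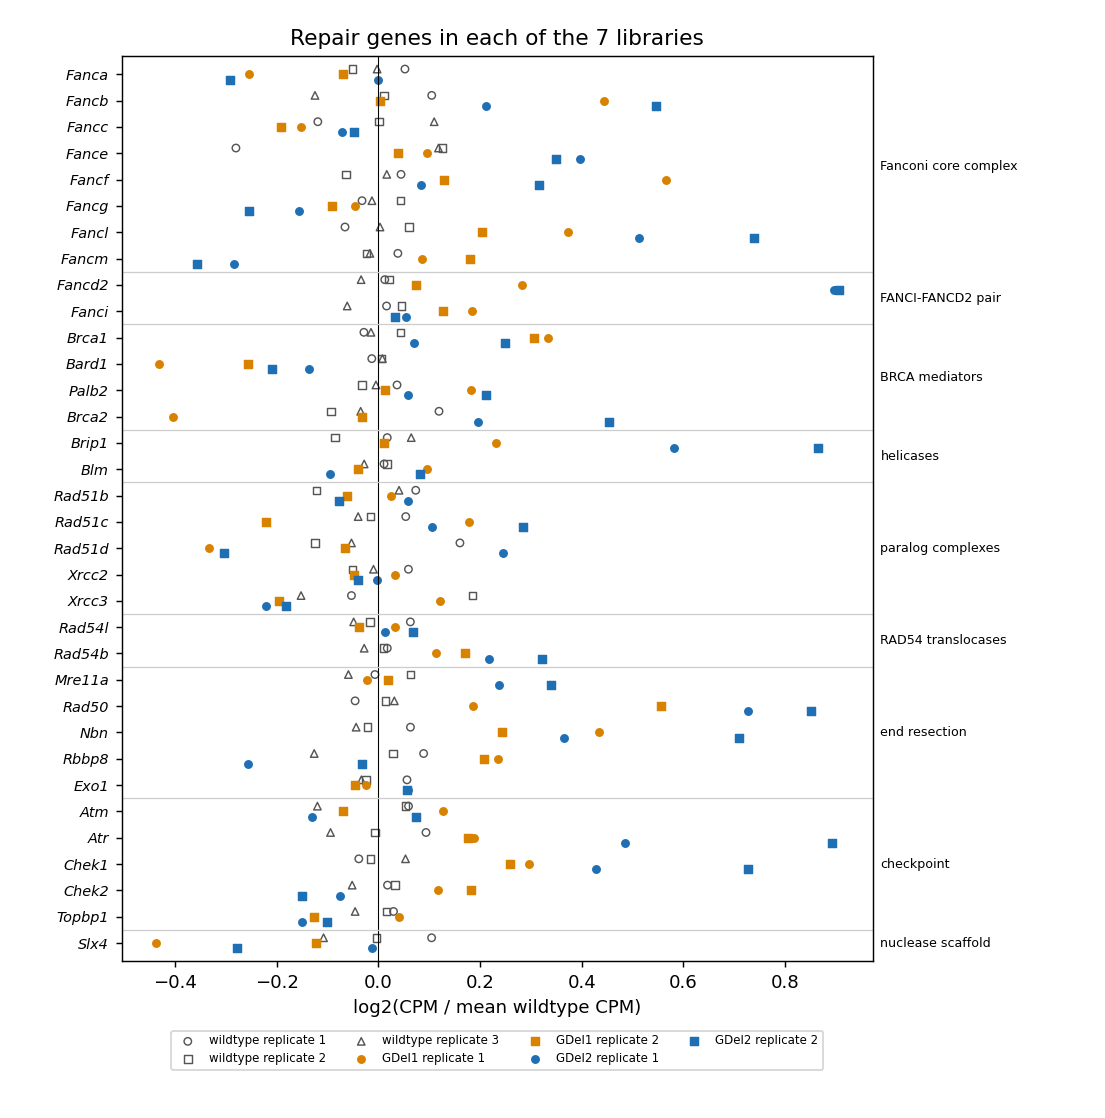
CPM of each repair gene in each of the 7 libraries, as log2 of the ratio to the wildtype mean (x axis), with genes grouped by role. The GDel2 libraries lie to the right for Fancd2, Rad50, Brip1, Atr, Fancl, Chek1 and Nbn, and to the left for Fancm.

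GDel2 against wildtype moved 10 of the 34 repair genes past the test, 9 higher and 1 lower. That is 29.4% of the repair genes beside 33.1% of all genes, so the share called is near the background. By direction, 26.5% of the repair genes were higher beside 17.4% of all genes, and 2.94% were lower beside 15.6%. The median of the 34 was 0.05, against 0.01 for all genes. The 24 genes that did not pass ran from -0.20 (Fancg) to 0.39 (Fancb). All adjusted p-values that follow are from edgeR's quasi-likelihood test unless another tool is named.

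Fancd2, the member of the FANCI-FANCD2 pair at the centre of the pathway, rose most. It had 101, 101 and 97.5 CPM in wildtype, 122 and 105 in GDel1, and 186 and 187 in GDel2. Both GDel2 libraries lay far above all others, 1.87-fold above wildtype (a log2 change of 0.90 ± 0.09 SE, adjusted p = 0.000156). Its partner Fanci did not pass: 119, 121 and 112 CPM in wildtype, 122 and 120 in GDel2 (0.04 ± 0.08, adjusted p = 0.716). The ratio of Fancd2 to Fanci TPM was 0.698, 0.683 and 0.632 in wildtype, 0.791 and 0.793 in GDel1, and 1.35 and 1.14 in GDel2. Fancd2 was the more abundant transcript of the pair in both GDel2 libraries and in none of the other 5.

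The core complex moved in both directions. Fancl, the ubiquitin ligase subunit, had 22.7, 24.7 and 23.8 CPM in wildtype, 30.8 and 27.3 in GDel1, and 33.9 and 39.6 in GDel2, and the 3 groups did not overlap. It was 1.55-fold higher in GDel2 (0.63 ± 0.11, adjusted p = 0.00268). Fancm had 141 and 134 CPM in GDel2, below every wildtype library (-0.32 ± 0.08, 1.25-fold lower, adjusted p = 0.0162). The other 6 subunits did not pass, with values from -0.20 for Fancg to 0.39 for Fancb and 0.37 for Fance.

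The call on Fancm was lost without wildtype replicate 1 (-0.30, adjusted p = 0.0751), 2 (-0.33, 0.0592) or 3 (-0.33, 0.0551) and without GDel2 replicate 2 (-0.29, 0.0951). Its value moved little in these fits, where the share of all genes called was 22.5%, 22.3%, 22.9% and 16.5%. That of Fancl was kept in each of these.

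Of the end resection genes, 3 of 5 rose, and these were the 3 subunits of the MRE11 complex. Rad50 had 71.2 and 77.6 CPM in GDel2, above every other library (1.73-fold above wildtype, 0.79 ± 0.12, adjusted p = 0.00121). Nbn had 23.0, 21.6 and 21.3 CPM in wildtype, 29.7 and 26.02 in GDel1, and 28.3 and 35.9 in GDel2 (1.46-fold, 0.55 ± 0.12, adjusted p = 0.00968). Both GDel2 libraries lay above wildtype, but replicate 1 lay within the range of GDel1. Mre11a had 76.5, 80.3 and 73.8 CPM in wildtype, 75.8 and 78.0 in GDel1, and 90.7 and 97.4 in GDel2 (1.22-fold, 0.29 ± 0.08, adjusted p = 0.0275). The 3 transcripts kept unlike sizes of change, and the TPM ratio of Mre11a to Rad50 was 5.46 to 6.20 in wildtype and 4.61 and 4.89 in GDel2, with 5.70 and 3.81 in GDel1.

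Exo1 (0.06) and Rbbp8 (-0.14), which encodes CtIP, the nuclease partner of the complex, did not pass. The call on Nbn was lost without GDel2 replicate 2 (0.36, adjusted p = 0.0997). The call on Mre11a was lost without wildtype replicate 1 (0.0949), 2 (0.0643) or 3 (0.107) or GDel2 replicate 2 (0.156), and with DESeq2 (0.0567).

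Of the checkpoint genes, 2 of 5 rose, and these were the kinases of the replication checkpoint. Atr had 118, 110 and 104 CPM in wildtype, 126 and 125 in GDel1, and 155 and 205 in GDel2 (1.63-fold higher, 0.70 ± 0.12, adjusted p = 0.00272). Chek1, the kinase that ATR activates, had 67.6, 68.7 and 72.1 CPM in wildtype, 85.3 and 83.1 in GDel1, and 93.4 and 115 in GDel2 (1.5-fold higher, 0.58 ± 0.10, adjusted p = 0.00280). For both genes every GDel2 library lay above every other library, and replicate 2, the GDel2 library of higher mitochondrial share, was the higher. The kinases of the break checkpoint did not pass: Atm was at -0.02 ± 0.11 and Chek2 at -0.11 ± 0.09. The TPM ratio of Atr to Atm was 0.669, 0.647 and 0.693 in wildtype and 1.03 and 1.12 in GDel2, and that of Chek1 to Chek2 was 1.35, 1.42 and 1.45 in wildtype and 2.03 and 2.47 in GDel2. The difference between the 2 arms was not tested. Topbp1, the highest member, was at -0.13 ± 0.09 (adjusted p = 0.302), with 335, 332 and 318 CPM in wildtype and 296 and 306 in GDel2.

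Of the 2 helicases, Brip1 rose and Blm did not pass. Brip1 had 25.2, 23.5 and 26.1 CPM in wildtype, 29.3 and 25.1 in GDel1, and 37.3 and 45.5 in GDel2, above every other library (1.66-fold higher, 0.73 ± 0.12, adjusted p = 0.00205). Blm had 146, 146 and 142 CPM in wildtype and 135 and 153 in GDel2 (0.00 ± 0.09). Of the RAD54 translocases, Rad54b had 50.3, 50.1 and 48.8 CPM in wildtype, 53.8 and 56.0 in GDel1, and 57.8 and 62.2 in GDel2 (1.21-fold higher, 0.27 ± 0.08, adjusted p = 0.0358), while Rad54l was at 0.04 ± 0.08. Rad54b had the smallest rise, with no overlap between the 3 groups. Its call was lost without wildtype replicate 1 (adjusted p = 0.101), 2 (0.109) or 3 (0.119) or GDel2 replicate 1 (0.0556) or 2 (0.187), and with DESeq2 (0.101).

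None of the 4 BRCA mediators passed in GDel2: Brca2 was at 0.33 ± 0.13 (adjusted p = 0.0842), Brca1 at 0.16, Palb2 at 0.14 and Bard1 at -0.17. Brca2 had 217, 187 and 195 CPM in wildtype and 229 and 274 in GDel2, so the groups did not overlap. Without GDel1 replicate 1 or GDel1 replicate 2, Brca2 stayed at 0.33 and Fancb at 0.39. Those libraries enter this comparison through the estimate of the spread only. None of the 5 paralog complex genes passed, with values from -0.20 for Xrcc3 to 0.20 for Rad51c, nor did Slx4 (-0.14). Rad51d, low throughout, had 12.4, 10.1 and 10.7 CPM in wildtype, 8.77 and 10.6 in GDel1, and 13.1 and 8.96 in GDel2. Fancf had 3.53, 3.28 and 3.46 CPM in wildtype, 5.07 and 3.75 in GDel1, and 3.63 and 4.26 in GDel2. For Exo1 the values were 91.0, 86.0 and 85.5 CPM in wildtype, 86.0 and 84.7 in GDel1, and 91.1 and 90.9 in GDel2.

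On the TPM scale fewer genes passed in GDel2. On log2(TPM + 1), limma called 2 of the 34 higher, Fancd2 and Rad50, and none lower, beside 16.9% of all genes, and the median of all genes was -0.05. The other 8 kept their direction (adjusted p = 0.0641 for Brip1, 0.0646 for Atr, 0.0660 for Chek1, 0.0792 for Fancl, 0.124 for Nbn, 0.127 for Mre11a, 0.280 for Fancm and 0.756 for Rad54b).

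**Figure D3:**
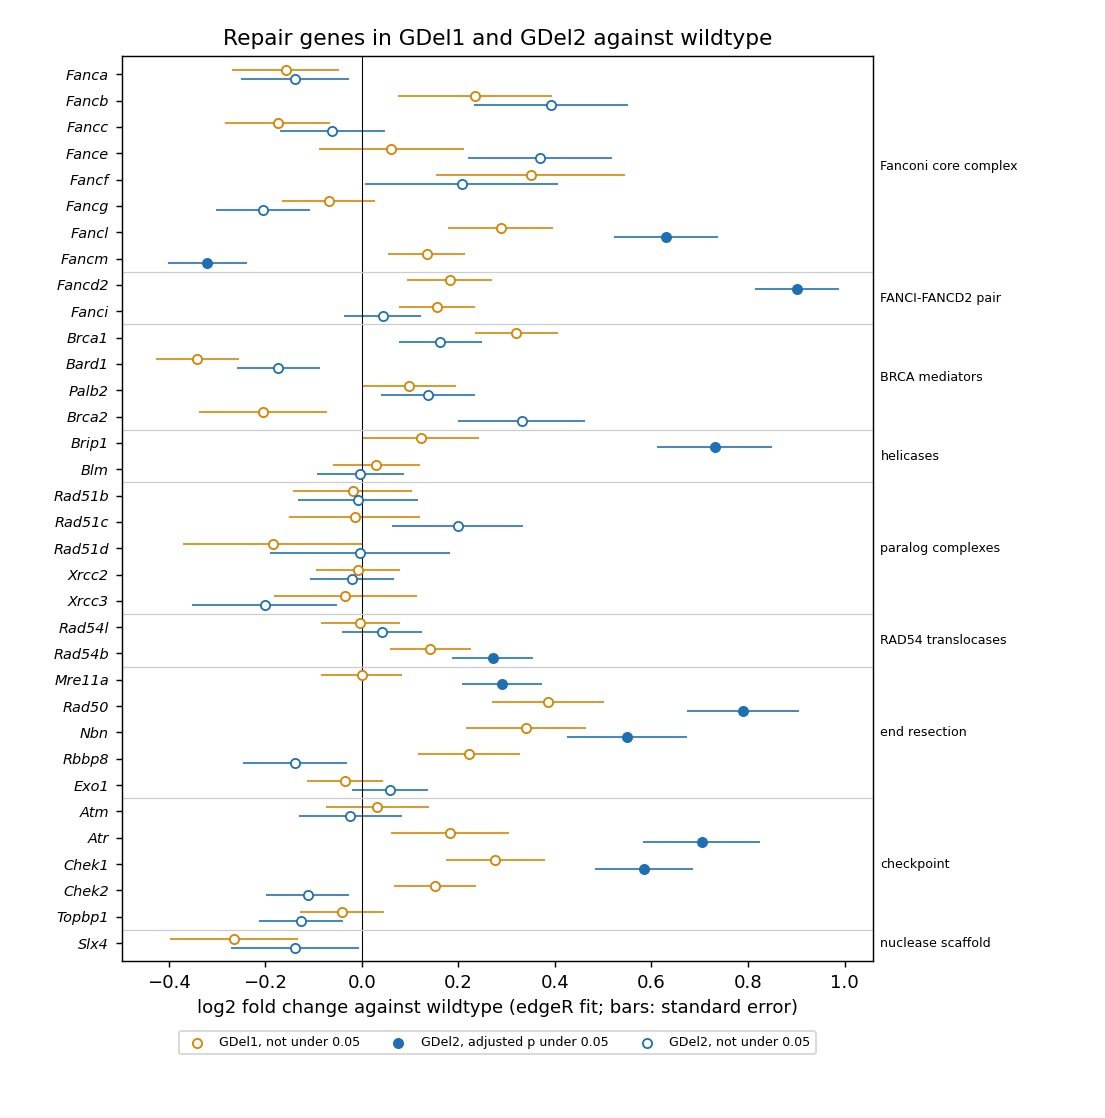
Log2 fold change of the 34 repair genes in GDel1 (orange) and GDel2 (blue) against wildtype, with standard errors from the edgeR fit; filled points have an adjusted p under 0.05. All 10 filled points are GDel2, 9 to the right of 0 and Fancm to the left.

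GDel2 against GDel1 compared the 2 groups of the same genotype label directly, and tests whether their differences from wildtype differ. Of the 34 repair genes, 6 were higher in GDel2 and 2 lower, 23.5% beside 27.7% of all genes (14.8% higher and 12.8% lower). The higher ones were Fancd2 (0.72 ± 0.10, adjusted p = 0.00106), Brip1 (0.61 ± 0.13, 0.00975), Brca2 (0.54 ± 0.15, 0.0253), Atr (0.52 ± 0.13, 0.0207), Rad50 (0.40 ± 0.13, 0.0450) and Mre11a (0.29 ± 0.09, 0.0451). Fancm (-0.45 ± 0.09, adjusted p = 0.00592) and Rbbp8 (-0.36 ± 0.12, 0.0498) were lower. Of the genes that rose in GDel2 against wildtype, Fancl (0.34, adjusted p = 0.0624), Chek1 (0.31, 0.0722), Nbn (0.21, 0.286) and Rad54b (0.13, 0.330) were not shown to differ between the 2 deletion groups. These comparisons share libraries, so they do not support each other.

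Brca2 and Rbbp8 differed between the deletion groups without passing against wildtype in either. Brca2 had 151 and 195 CPM in GDel1 against 229 and 274 in GDel2. Rbbp8 had 39.0, 37.4 and 33.6 CPM in wildtype, 43.1 and 42.4 in GDel1, and 30.7 and 35.9 in GDel2. GDel2 lay above GDel1 for Brca2 and below it for Rbbp8, with no overlap.

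Leaving out single libraries ended some of these calls. Fancd2 and Fancm were called in all 7 of these fits, and Atr and Brip1 in 6, lost without GDel2 replicate 2 (0.30, adjusted p = 0.115, and 0.46, adjusted p = 0.0676). Brca2 was lost when wildtype replicate 3 (0.0521), GDel1 replicate 1 (0.0544, at a log2 change of 0.36) or GDel2 replicate 2 (0.148) was left out. Rad50 was called only without GDel1 replicate 2, and was lost without wildtype replicate 1 (0.0781), 2 (0.0849) or 3 (0.0822), GDel1 replicate 1 (0.114, at a log2 change of 0.23), or GDel2 replicate 1 (0.104) or 2 (0.185). Mre11a (0.0527 to 0.174) and Rbbp8 (0.0510 to 0.187) were called in none of the 7. With both libraries of high mitochondrial share left out, 3 repair genes were higher and 4 lower, beside 17.8% and 18.7% of all genes. In that fit the calls on Rad50 (0.15, adjusted p = 0.198), Brca2 (0.21, 0.121) and Mre11a (0.20, 0.0814) were lost. Atr was still called there, at 0.29 (0.0204). In the fit with all 7 libraries the median of the repair genes was 0.10 against -0.01 for all genes. On log2(TPM + 1) it was 0.41 against 0.24, where Fancm (0.31) and Rbbp8 (0.18) had the other sign and did not pass. Relative to the median of all genes on that scale, Fancm was at 0.07 and Rbbp8 at -0.06.

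With GDel1 and GDel2 as 1 group of 4, edgeR called 0 of the 34 repair genes and 0.0% of all genes, with 9 of the 34 (8 higher and 1 lower) and 2930 of 15421 genes (19.0%) at an unadjusted p under 0.05. In this fit the difference between GDel1 and GDel2 counts as error. DESeq2 called 4 of the 34, all higher, beside 6.28% of all genes: Rad50 (0.60, adjusted p = 0.0158), Chek1 (0.44, 0.0357), Nbn (0.45, 0.0407) and Fancl (0.47, 0.0460). For these 4 genes every GDel1 and every GDel2 library lay above every wildtype library. This also held for Fancf, Fancd2, Brca1, Rad54b and Atr, which DESeq2 did not call here. Over all genes, both GDel1 libraries lay above wildtype for 20.9% and both GDel2 libraries for 32.2%. The share of all genes that met both rules was not counted. The mean of GDel1 and GDel2 in the fit with 3 groups called 8 higher and 1 lower (Bard1), beside 20.4% of all genes.

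The groups did not overlap for many repair genes. In GDel2, 16 of the 34 repair genes (47.1%) had both libraries above every wildtype library, beside 32.2% of all genes, and 6 (17.6%) had both below, beside 31.0%. In GDel1 these counts were 13 (38.2%, beside 20.9%) and 5 (14.7%, beside 22.6%). Between GDel2 and GDel1, 13 were all above (38.2%, beside 29.9%) and 6 all below (17.6%, beside 29.1%).

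Each repair gene was also set beside the genes around it, because genes of chromosomes 6 and 8 were higher in GDel2 as a whole. Their medians were 0.51 and 0.44 over 658 and 713 tested genes, and 51.2% and 50.9% were called higher. Fancd2 (ENSMUSG00000034023, chr6:113531640-113597020 in GRCm38.p6) is the 1 repair gene on chromosome 6. Its 0.90 stood 0.40 above the median of its chromosome and 0.33 above that of the 67 tested genes within 5 Mb. Fanca, a core complex subunit, is the 1 on chromosome 8. With 61.5, 57.2 and 59.2 CPM in wildtype and 59.3 and 48.4 in GDel2 it was at -0.14 ± 0.11, which is 0.58 below both its chromosome and its neighbours.

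On chromosome 11, stretches differed. Fancl (ENSMUSG00000004018, chr11:26387084-26471883) was at the level of its 39 neighbours, whose median was 0.65, so nothing remained relative to them (-0.02). Rad50 (ENSMUSG00000020380, chr11:53649519-53707319) stood 0.24 above its neighbours (median 0.55). In GDel2 against GDel1 the neighbours of Rad50 had a median of 0.57, and its difference from them was -0.16. Brip1 (ENSMUSG00000034329, chr11:86058136-86201215) lay among neighbours with a median of 0.08 and stood 0.65 above them.

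The other genes that rose stood above their neighbours by smaller or like amounts. Atr (ENSMUSG00000032409, chr9:95857597-95953217) was 0.57 above, Chek1 (ENSMUSG00000032113, chr9:36708482-36726658) 0.34, Nbn (ENSMUSG00000028224, chr4:15957587-15992589) 0.32, Mre11a (ENSMUSG00000031928, chr9:14784654-14837125) 0.16 and Rad54b (ENSMUSG00000078773, chr4:11558920-11615808) 0.08. Fancm (ENSMUSG00000055884, chr12:65074110-65131842) was 0.46 below. Of the 9 genes that rose, all 9 exceeded the median of their chromosome, by 0.31 to 0.75, and 8 exceeded that of their neighbours. They were chosen for a rise. Exceeding the medians of chromosomes 4, 9 and 11 (-0.03, -0.04 and 0.10) was thus largely set by that choice. These differences are descriptions and carry no test.

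**Figure D4:**
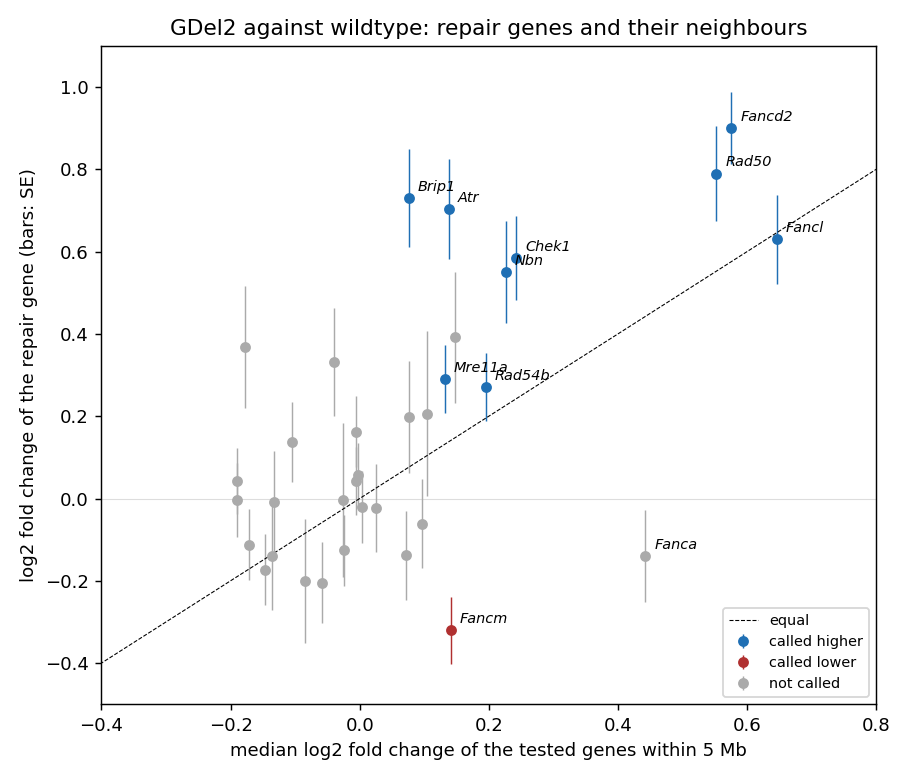
Log2 fold change of each repair gene in GDel2 against wildtype (y axis, bars are standard errors) against the median of the tested genes within 5 Mb of it (x axis); the dashed line marks equal values. Brip1 and Atr lie far above the line, Fancl lies on it, and Fanca and Fancm lie below it.

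Overlapping genes limit some values, because the sources used here do not give the strand setting of the counting. By RefSeq positions, 16 of the 34 repair genes overlap another gene and 11 overlap a protein-coding one. Among the genes that rose, Fancl overlaps Vrk2 and Brip1 overlaps Atp5l-ps2, while Fancd2 (with Fancd2os), Rad54b (with Fsbp) and Atr (with 1700065D16Rik) each overlap 2 or 3 entries. Rad50, Nbn, Mre11a, Chek1 and Fancm overlap none.

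Other repair genes were read from lists beside the 34, in GDel2 against wildtype. Of 22 further Fanconi and crosslink repair genes, 4 were higher and 1 lower (18.2% and 4.55%, beside 17.4% and 15.6% of all genes), with a median of -0.06. Rev1, a polymerase that copies past lesions, fell (-0.63 ± 0.10, adjusted p = 0.00137), while Rfwd3, a ubiquitin ligase that acts on RPA (0.63 ± 0.09, 0.000830), and Faap24, the DNA-binding partner of FANCM (0.52 ± 0.15, 0.0311), rose. Faap24 and Fancm, which act as a pair, thus moved in opposite directions. Rfwd3 lies on chromosome 8.

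Of 28 further homologous recombination genes tested, 6 were higher and 2 lower (21.4% and 7.14%), with a median of 0.13. Mcm8, the partner of MCM9 in a helicase (0.86 ± 0.15, adjusted p = 0.00307), Fignl1, an ATPase of the recombination machinery (0.85 ± 0.12, 0.000873), and Rad51ap1, which stimulates strand exchange (0.71 ± 0.09, 0.000513, on chromosome 6), rose. Of 14 genes of the BRCA1-A complex and of damaged chromatin, 2 rose (14.3%), Shld1 of shieldin (0.86 ± 0.18, 0.00743) and Babam1 (0.44 ± 0.10, 0.00795). Of 13 partners of the replication checkpoint, 4 rose and 4 fell (30.8% each): Hus1, a subunit of the clamp that helps activate ATR, was at 0.98 ± 0.11 (0.000303), Tipin, which protects forks, at 0.51 ± 0.13 (0.0177) and Wee1, the kinase that holds back mitosis, at -0.57 ± 0.09 (0.00228).

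Other pathways gave these counts beside 17.4% of all genes higher and 15.6% lower. End joining had 5 of 12 higher and 0 lower (median 0.21; Lig4 0.96, Xrcc5 0.53, Aplf 0.42). Mismatch repair had 2 of 6 higher and 1 lower (median 0.17, values from -0.34 to 0.54). Base excision repair had 8 of 17 higher and 0 lower (median 0.18; Polb 1.12, Mpg 0.80, Mbd4 0.58). Nucleotide excision repair had 4 of 13 higher and 3 lower (median 0.06; Xpc 0.65, Ddb1 -0.61, Ercc3 -0.57). Polb and Lig4 lie on chromosome 8, and Mbd4, Xpc and Aplf on chromosome 6. Chromosomes are given for only some of the named genes of the other lists. None of those genes was set beside its neighbours, so a gene named without a chromosome may also lie in a stretch that moved.

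Genes of the cell cycle were set beside the repair genes, many of which are transcribed most in S phase. Of 34 S phase genes, 14 were higher and 1 lower (41.2% and 2.94%), with a median of 0.23. Ccne2, a cyclin of S phase entry, was at 0.77 ± 0.12, Gins2 of the replicative helicase at 0.74 ± 0.21 and Pcna, the sliding clamp, at 0.71 ± 0.11. Of 20 genes of G2 and mitosis, 1 was higher and 4 lower (median -0.11; Aurkb -0.50, Plk1 -0.48, Bub1 0.44). Of 18 p53 target genes tested, 1 was higher and 6 lower (median -0.28; Perp 0.84, Sesn2 -0.79, Zmat3 -0.75). Of 18 genes of the E2F and RB family, 3 were higher and 2 lower (median -0.03; Tfdp1 0.74, on chromosome 8, Tfdp2 -0.66, Lin37 -0.47). In GDel1 none of the genes of these 12 lists passed, beside 0.376% of all genes. The S phase genes had a median of 0.17 in GDel1 against wildtype, with 27 above 0 and 7 below. At an unadjusted p under 0.05 (edgeR), 15 of these 34 were higher and 1 lower, beside 12.6% and 11.9% of all genes. Their median in GDel2 against GDel1 was 0.01. The part of the cell cycle in the values of the repair genes was not tested.

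**Figure D5:**
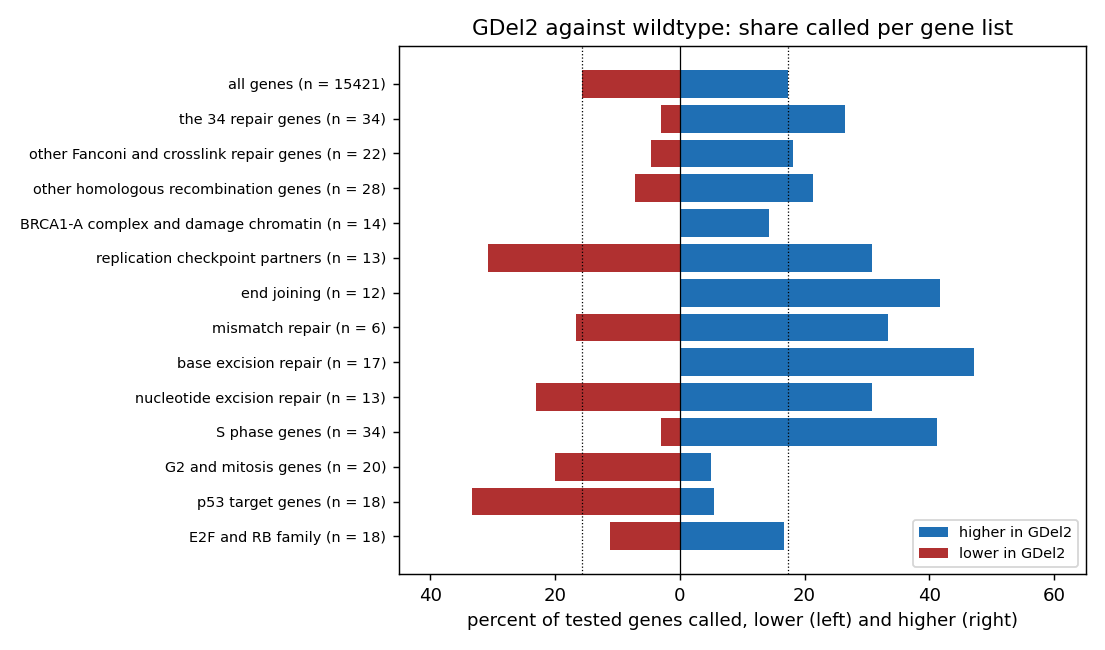
Share of tested genes called higher (right) and lower (left) in GDel2 against wildtype (edgeR, adjusted p under 0.05) for all genes, the 34 repair genes and 12 other lists; dotted lines mark 17.4% and 15.6%, the shares over all genes. The repair genes have 26.5% higher and 2.94% lower.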

How the data were processed

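The members and all lists of genes were chosen with earlier results of these data known. RNA sequencing gave 1 deposited table of RSEM gene results per library. The authors' expected counts are estimated per gene without scaling for depth. TPM, scaled by the authors for effective length to a fixed sum per library, served for levels between genes and as an alternative. The authors' FPKM, the third deposited measure, was not used. Deposited lengths are in bases. Tools listed in the submitters' processing notes, with no version, are RSEM, STAR, Bowtie2, HiC-Pro and deepTools, and the build is mm10. Annotation release and strand setting of the counting: not given in the sources used here.

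Of 55487 identifiers, 55141 had a symbol in the name table. Positions came from RefSeq's GRCm38.p6 table by symbol. Hrob and Shld3 of the other lists had no matched identifier, and 2 further genes of those lists are not reported here and enter none of their counts. Expected counts were rounded, and genes kept by filterByExpr (minimum count 10, minimum total 15). R 4.3.3 with edgeR 4.0.16 fitted the 3 groups (TMM scaling, robust quasi-likelihood F test, 2-sided), with Benjamini-Hochberg adjustment over all 15421 genes and a threshold of 0.05. The standard error is the log2 fold change divided by the square root of F. CPM uses the TMM library size. Alternatives used DESeq2 1.42.0, limma 3.58.1 on log2(TPM + 1) and log2(TPM + 0.1), other filters (none, or a minimum count of 50), a replicate block, and each library left out. The script was tested on simulated counts. Values per library were given for repair genes called in a comparison of 2 groups and for the 3 highest and 3 lowest by wildtype TPM. From each other list up to 3 called genes of largest change in GDel2 were named. Brca1, Bard1, Fanca, Fanci, Blm and others were added after their values were seen.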

Additional observations from a re-analysis of the deposited data

Results flagged for a closer look

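The effects of the 2 deletion groups on a repair gene differed for 8 of the 34 genes, by the direct test of GDel2 against GDel1 (edgeR, adjusted p under 0.05), beside 27.7% of all genes. Fancd2 (0.72), Brip1 (0.61), Brca2 (0.54), Atr (0.52), Rad50 (0.40) and Mre11a (0.29) had the higher log2 level in GDel2. Fancm (-0.45) and Rbbp8 (-0.36) had the lower. The difference from the median of tested genes within 5 Mb was -0.16 for Rad50 (neighbours at 0.57) and 0.205 for Fancd2 (neighbours at 0.51). It was 0.65 for Brip1, 0.68 for Brca2, 0.58 for Atr, 0.28 for Mre11a, -0.32 for Fancm and -0.29 for Rbbp8. These differences carry no test. Both groups carry 1 genotype label. In GDel2 against GDel1 the median of chromosome Y was -9.48 over 6 tested genes, and those of chromosomes 6 and 8 were 0.45 and 0.46. Whether the differences of the repair genes lie between clones, cultures or libraries was not tested.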

How the results depend on the processing

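The 34 repair genes were recomputed under each alternative in each comparison, except that the crossed pairing was not fitted for the deletions as 1 group, and the mean of GDel1 and GDel2 stands for that comparison only. Single-gene results kept their direction and their side of the threshold in 2028 cases, counting as kept a change of sign where neither value passed, gained a call in 62, lost one in 78 and reversed in 8. The reversals came on the TPM scale with pseudocounts of 1 and 0.1. They were Fanci (-0.55 and -0.57) and Fancm (-0.62 and -0.63) in GDel1 against wildtype, called lower there, and the calls on Rbbp8 (0.18 and 0.20) and Fancm (0.31 and 0.32) in GDel2 against GDel1, lost there. Relative to the median of all genes, Rbbp8 in GDel2 against GDel1 was at -0.06 and -0.16, and thus still lower. Fancm there was at 0.07 and -0.04. In GDel1 against wildtype, Fanci was at -0.25 and -0.14 relative to that median, and Fancm at -0.32 and -0.20. The cause of the reversals was not tested. Under both pseudocounts GDel1 had 6 lower repair genes (medians -0.37 and -0.42), beside 20.9% and 22.7% of all genes. GDel2 had 2 higher and 0 lower (medians -0.025 and -0.029), beside 8.22% and 7.53% of all genes higher and 8.66% and 8.63% lower. GDel2 against GDel1 had 0 lower (medians 0.41 and 0.45), beside 2.36% and 2.75% of all genes. With a pseudocount of 1, Fancl, Rad50, Mre11a, Chek1, Atr, Fancd2, Brip1 and Brca2 were called higher there, beside 21.9% of all genes. The deletions as 1 group had medians of -0.18 and -0.21. DESeq2 gave 1 higher and 1 lower in GDel1, beside 3.59% and 2.85% of all genes. It gave 1 lower in GDel2 against GDel1 (beside 10.6%) and 4 higher for the deletions as 1 group (beside 3.13%). With no filter on low counts GDel1 had 2 higher, beside 4.81% of all genes. The stricter filter gave 1 lower in GDel2 against GDel1, beside 14.9%. The mean of GDel1 and GDel2 in the fit with 3 groups gave 8 higher and 1 lower. Without both libraries of high mitochondrial share, GDel1 had 5 higher and 1 lower, GDel2 kept its counts of 9 higher and 1 lower (beside 19.0% and 17.5% of all genes), and GDel2 against GDel1 had 3 higher and 4 lower.

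With each library left out in turn, GDel1 had 0 to 1 higher and 0 to 1 lower (median 0.0085 to 0.11), GDel2 had 6 to 11 higher and 0 to 1 lower, and GDel2 against GDel1 had 1 to 5 higher and 1 to 2 lower (median 0.048 to 0.10). The share of all genes called moved as well, from 0.026 to 12.6% in GDel1, 16.5 to 41.3% in GDel2 and 16.2 to 34.7% between them. Leaving out a deletion library leaves 1 in its group, which is then assumed to vary like the others. Deviations of same-numbered libraries from their group means had correlations from -0.21 to 0.10. In a group of 2 libraries these deviations mirror each other, so the correlations cannot decide whether the numbers pair libraries. A fit with the replicate block gave 6 higher and 0 lower in GDel2 (beside 8.17% and 6.72% of all genes), 1 higher and 0 lower in GDel2 against GDel1 (beside 8.33% and 6.16%), and 0 in GDel1 and for the deletions as 1 group. A crossed pairing, chosen after seeing the data, gave 5 higher and 2 lower in GDel1, 10 higher and 2 lower in GDel2, and 8 higher and 3 lower between them, beside 21.3%, 45.2% and 39.9% of all genes called. Standard errors of the repair genes ran from 0.0785 to 0.2 in GDel2 against wildtype, the largest for Fancf, which had the fewest counts, so smaller changes of such genes were not detectable at this depth and number of libraries.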
